A study of Caenorhabditis elegans with 24 samples.

Results

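Bins of 2 kb in which the Dam::BAF-1 ratio was higher in the intestine than in the hypodermis were selected from DamID profiles of L4 larvae of *C. elegans*. A bin was kept where none of its 6 Dam::BAF-1 values was the most frequent value of its column, and each column was set to a median of 0 over the kept bins. A kept bin was a member where the lowest of the 3 intestine values exceeded the highest of the 3 hypodermis values by more than 1 on the log2 scale. This difference between the lowest intestine and the highest hypodermis value is called the gap. The rule found 1892 members among 32322 kept bins (5.85%) and 50139 bins in all. The same rule turned round gave 1581 bins with a higher ratio in the hypodermis, which serve as the contrast set. Because the BAF-1 values selected the members, they are given below as a description without a test.

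BAF-1 (barrier-to-autointegration factor) is a small DNA-binding protein that bridges chromatin and the nuclear envelope, where it contacts lamin and the LEM-domain proteins emerin and LEM-2. In nematodes the nuclear periphery is rich in silent chromatin, and the distal arms of the autosomes contact it more often than the centres. In DamID a bacterial DNA adenine methyltransferase (Dam) is fused to a protein of interest and marks GATC sites near the places it touches, and the marked sites are then amplified and sequenced.

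There were 24 libraries in 8 groups of 3 replicates. In the intestine, Dam::BAF-1(G12T) and GFP::Dam were expressed in *baf-1(G12T)* animals, whose own *baf-1* gene carries the change, and Dam::BAF-1 and GFP::Dam in WT animals. The same 4 groups were made in the hypodermis. All groups carried the Dam construct behind the hsp16.41 promoter and an mCherry::histone cassette that FLP recombinase removes, with FLP driven by the nhx-2 promoter in the intestine and the dpy-7 promoter in the hypodermis. The fusion genes were single copies integrated in the genome, and the read-out is limited to cells in which these promoters had been active. Each library came from 4000 animals grown for 48 h at 20 °C, with 400 ng of DNA and 22 PCR cycles. Every value below is a log2 ratio of a fusion to GFP::Dam of the same tissue and genotype, so that a ratio is higher either where the fusion left more reads or where GFP::Dam left fewer, which cannot be told apart here. The hypodermis is the epidermis of the worm, which makes the cuticle. The ratios hold no read depth, so precision is given as the spread between replicates. Read totals per library, which the study lists and which are uneven between libraries, were not used, and their part in the results was not tested. DamID measures no transcript, and the ratios therefore cannot check the tissue labels against marker expression.

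The sequences around the GATC site nearest the bin centre are shown for the 4 members with the largest gaps (at most 1 per 100 kb), to show how few measurable sites stand behind a bin. They are on the plus strand of WBcel235 (ce11), as given by RefSeq, with each GATC site in capitals.
chrV:3980623-3980922, outside annotated genes, downstream of nlp-31: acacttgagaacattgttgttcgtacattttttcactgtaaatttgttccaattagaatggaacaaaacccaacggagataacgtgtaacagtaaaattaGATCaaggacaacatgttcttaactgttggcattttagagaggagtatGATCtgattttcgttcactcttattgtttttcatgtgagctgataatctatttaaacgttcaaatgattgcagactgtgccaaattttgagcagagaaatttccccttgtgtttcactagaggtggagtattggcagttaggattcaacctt
chrII:4394359-4394658, within an intron of mlt-7: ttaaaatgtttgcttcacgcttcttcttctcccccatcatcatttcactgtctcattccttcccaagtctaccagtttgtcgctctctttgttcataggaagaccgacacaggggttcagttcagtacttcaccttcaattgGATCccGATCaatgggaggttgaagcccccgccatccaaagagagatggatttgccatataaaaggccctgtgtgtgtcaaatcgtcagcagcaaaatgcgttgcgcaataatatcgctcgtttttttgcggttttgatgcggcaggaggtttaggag
chrII:14626867-14627166, outside annotated genes, near tag-297: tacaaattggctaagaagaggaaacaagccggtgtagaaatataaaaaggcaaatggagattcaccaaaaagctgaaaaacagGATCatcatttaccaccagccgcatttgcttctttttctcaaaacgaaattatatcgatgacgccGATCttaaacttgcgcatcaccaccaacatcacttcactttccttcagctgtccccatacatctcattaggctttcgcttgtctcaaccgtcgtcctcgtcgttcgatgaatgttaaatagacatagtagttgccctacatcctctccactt
chrV:5412828-5413127, partly in an exon of F08F3.4 (174 bases): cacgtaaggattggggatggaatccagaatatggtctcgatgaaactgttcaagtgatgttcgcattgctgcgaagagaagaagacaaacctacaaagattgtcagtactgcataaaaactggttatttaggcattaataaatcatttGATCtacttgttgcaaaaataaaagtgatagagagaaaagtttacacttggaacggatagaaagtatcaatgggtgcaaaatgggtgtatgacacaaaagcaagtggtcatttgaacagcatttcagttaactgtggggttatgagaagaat

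These stretches of 300 bases held 2, 2, 2 and 1 GATC sites. The whole bins they lie in held 4, 3, 5 and 4 sites, and members in general had a median of 5 sites (quartiles 4 and 7), against 7 (quartiles 5 and 9) in the bins higher in the hypodermis and 6 (quartiles 4 and 8) over all kept bins.

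In the columns that selected them, the members lay above the column median in the intestine and below it in the hypodermis. The median BAF-1 ratio over members averaged 1.69 ± 0.43 in the intestine and -1.60 ± 0.35 in the hypodermis (SD of the replicate medians, n = 3 each). By replicate the intestine medians were 1.34, 1.55 and 2.17, against -1.71, -1.88 and -1.21 in the hypodermis. Of the members, 1393 (73.6%) had a mean above 0 in the intestine and below 0 in the hypodermis. A further 253 were above 0 in both tissues and 246 below 0 in both, so that the column median did not always lie between the tissues.

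**Figure D1:**
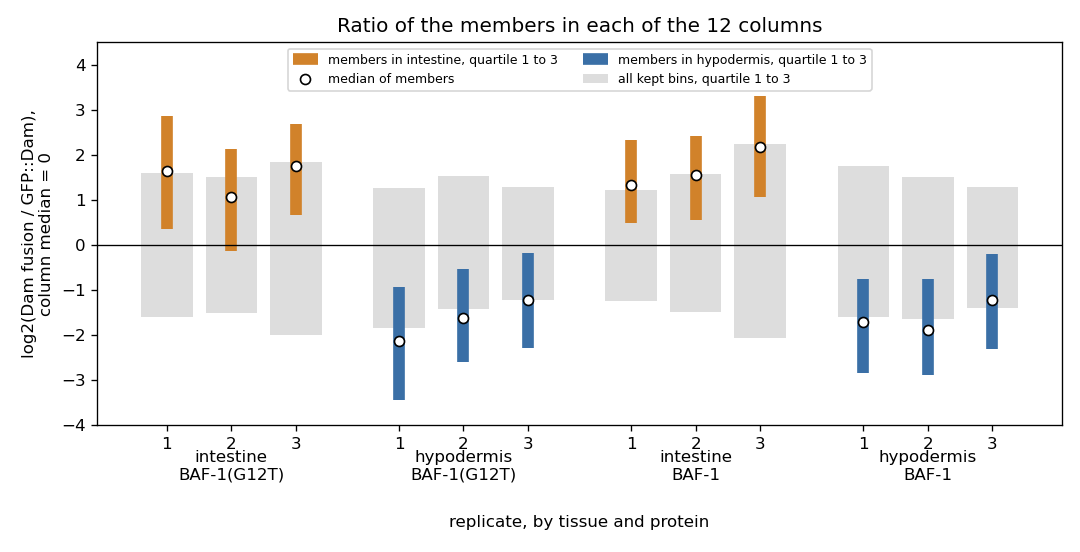
Ratios of the members in the 12 columns, as log2 of Dam fusion over GFP::Dam with the column median at 0. Coloured bars run from the first to the third quartile of the members, white points are their medians, and grey bars are the quartiles of all kept bins. Medians lie between 1.06 and 2.17 in the 6 intestine columns and between -2.12 and -1.21 in the 6 hypodermis columns.

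The BAF-1(G12T) columns come from other strains and other GFP::Dam libraries, and the rule did not use them. There, 1656 of the 1892 members had no column at its most frequent value and could be tested, whereas 236 could not. The tested members showed the same order of tissues. Their median ratio averaged 1.48 ± 0.37 in the intestine and -1.65 ± 0.45 in the hypodermis (SD of the replicate medians, n = 3 each). The intestine medians were 1.64, 1.06 and 1.75 for replicates 1, 2 and 3, against -2.12, -1.62 and -1.22 in the hypodermis. No intestine median overlapped with a hypodermis median.

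The difference between intestine and hypodermis in the BAF-1(G12T) columns had a median of 2.97 over the tested members, which is a linear ratio of 7.81. The median was 0.05 over all 34025 bins kept in these columns and -1.92 over the 1430 hypodermis-higher bins kept there. The difference was above 0 in 1607 members (97.0%), against 51.2% of all kept bins. limma, fitted across all kept bins, called 946 of the 1656 members (57.1%) higher in the intestine at a false discovery rate of 0.05, while it called 5.09% of all kept bins higher. The smallest difference it called in a member was 2.43. No member was called lower in the intestine, against 3.09% of all kept bins, and a single member was below 0 at an unadjusted p under 0.05. The number of calls depended on single libraries. It was 179 without hypodermis replicate 1 (0.638% of all kept bins), 321 without hypodermis replicate 2 (1.17%), 482 without intestine replicate 3 (2.07%) and 624 without hypodermis replicate 3 (2.75%). The same-numbered columns of both proteins deviated together within a tissue, with correlations across bins of 0.20 to 0.42 in the intestine and 0.32 to 0.49 in the hypodermis. The part of this sharing in the members' difference was not tested.

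A count that needs no model gave a similar picture. The lowest intestine value exceeded the highest hypodermis value by more than 1 in 989 members (59.7%) in the BAF-1(G12T) columns, against 6.64% of all kept bins. Of these, 894 were also called by limma. The replicates of both tissues did not overlap, with the intestine on top, in 1288 members (77.8%), against 16.5% of all kept bins. The opposite order without overlap was found in 1 member, against 13.8% of all kept bins. 

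**Figure D2:**
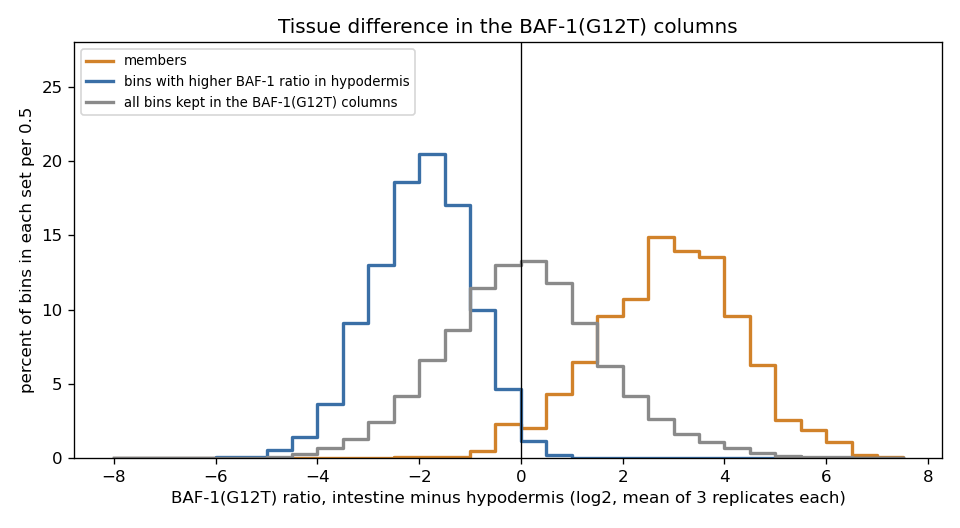
Difference between intestine and hypodermis in the mean BAF-1(G12T) ratio (log2), as the percent of bins per interval of 0.5. The members have a median of 2.97, the bins with a higher BAF-1 ratio in the hypodermis one of -1.92, and all kept bins one of 0.05.

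The BAF-1(G12T) ratio was then tested against the column median in each tissue by itself. Members above it by this test are called bound here. The study's own calls differ, as they compare fusion reads with GFP::Dam reads by DESeq2. In the intestine 764 members (46.1%) had a ratio above 0 by limma, against 22.9% of all kept bins. In the hypodermis this was so for 59 members (3.56%), against 26.3% of all kept bins, and 54 of these were bound in both tissues. A ratio below 0 in the hypodermis was called in 1005 members (60.7%), against 27.8% of all kept bins. The count bound in the intestine was 465 without intestine replicate 3, and that in the hypodermis was 32 and 29 without hypodermis replicates 2 and 3. By the signs of the means, 1087 members (65.6%) were above 0 in the intestine and below 0 in the hypodermis, against 11.9% of all kept bins. Thus the members stood out by a low hypodermis level as well as by a high intestine level.

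Members with a wide BAF-1 gap also had a wide difference in the BAF-1(G12T) columns. The median BAF-1(G12T) difference was 2.40 in the 698 tested members with a gap of 1 to 1.5, 3.01 in 439 with 1.5 to 2, 3.65 in 370 with 2 to 3, and 4.62 in 149 with more than 3. The shares called higher were 38.8%, 58.8%, 76.2% and 90.6%. The nearest members inside the threshold of 1 had gaps of 1.003, 1.003 and 1.004. One of them, in T17H7.7 on chromosome III, had BAF-1 ratios of 2.24, 3.17 and 4.33 in the intestine, against 0.79, 0.72 and 1.24 in the hypodermis. Another lay on chromosome IV at C18F3.10, at 0.08, -0.28 and -0.62 in the intestine, against -2.34, -1.63 and -1.87 in the hypodermis. The third, outside genes on X, had 1.34, -1.11 and -2.55 in the intestine, against -4.16, -3.56 and -3.69 in the hypodermis. The replicates of its intestine group therefore spread more widely than the gap itself.

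The nearest bins outside the threshold had gaps of 0.9997, 0.9993 and 0.998. The bin at K07A3.3 on chromosome I had 0.98, 1.63 and 3.81 in the intestine, against -0.02, -1.32 and -3.23 in the hypodermis. The bin with *baf-1* itself, on chromosome III, had 3.78, 3.77 and 3.84 in the intestine, against -0.86, 2.77 and -0.02 in the hypodermis. The fusion constructs carry a second copy of *baf-1*, and the part of its reads in this bin was not tested. The bin in xpf-1 on chromosome II had -0.92, 0.87 and -0.09 in the intestine, against -1.94, -2.40 and -1.92 in the hypodermis.

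The member with the largest gap (5.24) was chrV:3980001-3982000, which holds nlp-31 and the start of the nlp-30 window. Both genes encode small secreted peptides with antimicrobial activity that the epidermis makes. In the BAF-1(G12T) columns the bin had ratios of 2.47, 3.38 and 2.43 in the intestine, against -4.44, -4.01 and -2.61 in the hypodermis. In the BAF-1 columns it had 2.37, 2.60 and 3.52 in the intestine, against -2.87, -2.94 and -2.99 in the hypodermis. No replicate of one tissue came within 5 units of any replicate of the other in either protein. The BAF-1(G12T) difference was 6.45 ± 0.76 (SE), with an adjusted p of 0.0053 by limma, the smallest adjusted p found in a member.

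The second, chrII:4394001-4396000, lay wholly within an intron of mlt-7, which encodes a peroxidase needed for cuticle formation and moulting. It had 0.36, -0.04 and 1.93 in the intestine, against -4.89, -3.08 and -3.58 in the hypodermis, in the BAF-1(G12T) columns, with a difference of 4.604 ± 0.81 (SE, adjusted p = 0.0084 by limma). In the BAF-1 columns it had 1.34, 2.69 and 2.04 in the intestine, against -5.23, -4.75 and -3.83 in the hypodermis. For both proteins every hypodermis value lay farther from 0 than any intestine value.

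The third, chrII:14626001-14628000, held parts of mltn-10 and tag-297, with 37.2% of its bases exonic. Its BAF-1(G12T) ratios were 3.09, 2.81 and 3.56 in the intestine, against -3.28, -3.21 and -2.04 in the hypodermis (difference 5.996 ± 0.72, SE, adjusted p = 0.0053 by limma). Its BAF-1 ratios were 3.96, 3.46 and 4.92 in the intestine, against -2.34, -2.58 and -1.50 in the hypodermis. All 12 values were at least 1.5 units from the column median.

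The fourth, chrV:5412001-5414000, overlapped F08F3.4. Its BAF-1(G12T) ratios were 5.92, 2.29 and 3.39 in the intestine, against -5.49, -1.92 and -1.91 in the hypodermis (difference 6.97 ± 1.11, SE, adjusted p = 0.0067 by limma). Replicate 1 of each tissue was the extreme one. The other named members were in agmo-1 (an alkylglycerol monooxygenase) on chromosome III, outside genes on chromosome V, in C05C8.7 on chromosome V and in gpa-12 on X. Their BAF-1(G12T) differences were 5.14 ± 0.93, 4.77 ± 1.00, 6.28 ± 0.92 and 2.78 ± 0.73 (SE), with adjusted p from 0.0063 to 0.035 by limma. All 8 of these members were therefore called in columns that had not selected them, as were 90.6% of the tested members with a gap over 3. The call of the gpa-12 bin was lost under 5 alternatives, that of the gene-free bin on chromosome V under 2, and those in mlt-7 and agmo-1 under 1 each.

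By smallest p in the BAF-1(G12T) columns, the first 5 members were the nlp-31 and tag-297 bins above, a gene-free bin on chromosome I, a bin at ceh-13 on chromosome III and a bin over an annotated pseudogene on chromosome V. ceh-13 encodes a homeodomain protein of the labial class. Its bin had 2.30, 3.01 and 1.93 in the intestine, against -3.49, -2.99 and -3.97 in the hypodermis (difference 5.90 ± 0.72, SE, adjusted p = 0.0053 by limma). In the other direction no member passed. The lowest p belonged to chrIV:7106001-7108000, which had -3.54, -0.57 and -0.45 in the intestine, against 0.47, 1.12 and 1.31 in the hypodermis (difference -2.49 ± 0.89, SE, adjusted p = 0.10 by limma). The next 4, outside genes on chromosomes IV and II, in cle-1 on chromosome I and at unc-36 on chromosome III, had differences of -1.21, -0.92, -1.58 and -0.88, with adjusted p of 0.36 or more by limma.

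The members were not spread evenly over the chromosomes. X held 555 members, 9.63% of its kept bins, against 5.03% of the kept bins of the autosomes. The bins higher in the hypodermis showed the opposite, with 1.84% on X, against 5.55% on the autosomes. Within X, members took 5.87%, 11.93%, 11.98% and 8.75% of the kept bins in 4 equal stretches from left to right. Among the autosomes, the centre of chromosome II stood highest, with 253 members (10.2% of its kept bins), against 24 hypodermis-higher bins (0.963%). The centre and the left arm of chromosome V followed with 6.81% and 6.18%, and the remaining 12 arms and centres held 2.97% to 5.81%.

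Members were less often in autosome arms than bins in general. Of the 1337 autosomal members 704 (52.7%) lay in arms, against 77.7% of the hypodermis-higher bins and 60.9% of all kept autosomal bins. Members in arms made up 4.35% of kept bins there and members in centres 6.09%, whereas hypodermis-higher bins made up 7.09% in arms and 3.17% in centres. The left arms of chromosomes III, IV and I held 11.97%, 10.36% and 9.95% hypodermis-higher bins, against 3.40%, 3.67% and 4.11% members. These shares describe bins selected by the same contrast and carry no test. In the BAF-1(G12T) columns the share of tested members called higher was 57.4% on X, 61.1% on autosome arms and 52.2% on autosome centres. Over all kept bins of the genome it was 5.09%. The share over all kept bins of each compartment was not computed. Members were therefore not set against other bins of the same compartment.

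**Figure D3:**
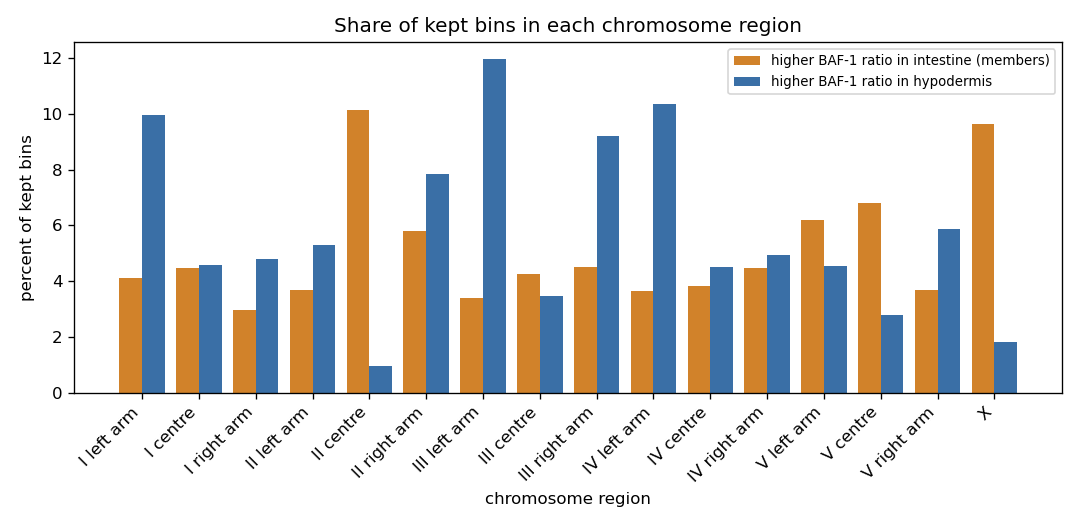
Percent of kept bins in each arm or centre of the autosomes and on X that had a higher BAF-1 ratio in the intestine (members) or in the hypodermis. Members reach 10.2% in the centre of chromosome II and 9.63% on X, and hypodermis-higher bins reach 11.97% in the left arm of chromosome III.

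Members lay next to each other more often than their share of bins. Of the kept bins next to a member 44.2% were members themselves, against 5.85% of all kept bins. The 1892 members formed 1279 runs, of which 946 were a single bin, 203 held 2 bins, 62 held 3, 33 held 4 and 35 held 5 or more. Because Dam marks sites at a distance and fragments cross bin borders, neighbours are not independent measurements. The median BAF-1(G12T) difference was 2.38 in single bins, 3.18 in runs of 2, 3.55 in runs of 3 or 4 and 4.13 in runs of 5 or more, and the shares called higher were 38.5%, 64.4%, 76.9% and 86.8%.

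Around members the BAF-1(G12T) difference declined with distance. Taking only bins that were not members themselves, its median was 1.83 and 1.75 at 2 kb to the left and right, 1.11 and 1.04 at 10 kb, 0.70 and 0.74 at 20 kb, and 0.52 and 0.55 at 40 kb. All kept bins that were not members had a median of -0.04. Bins beside members therefore shared the direction of the members out to 40 kb without meeting the rule.

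**Figure D4:**
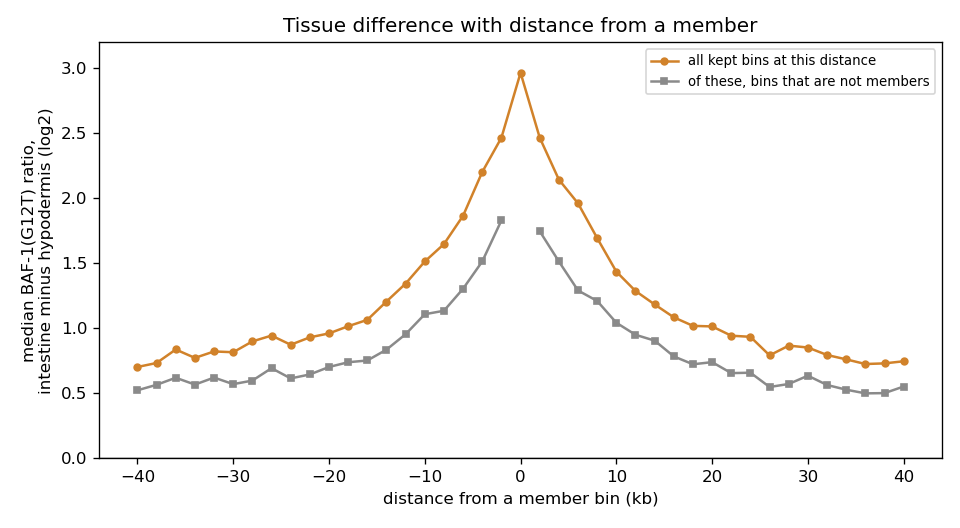
Median difference between intestine and hypodermis in the BAF-1(G12T) ratio (log2) against the distance from a member bin in kb. The curve of all kept bins peaks at 2.97 at the member and is 0.70 and 0.75 at 40 kb, and that of bins that are not members is 1.83 and 1.75 at the nearest neighbours.

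The longest runs were 3 stretches of 18 kb. At chrIII:10170001-10188000 the run covered most of mua-3, which encodes a fibrillin-like transmembrane protein that ties the epidermis to the cuticle, and unc-47, the vesicular GABA transporter. The mean over its 9 bins was 4.88, 2.43 and 3.87 in the intestine, against -1.52, -1.03 and 0.08 in the hypodermis, in the BAF-1(G12T) columns. All 8 of its tested bins were called higher in the intestine, with differences from 3.99 to 5.28. At chrIII:728001-746000 the run followed pat-12, which encodes a component of the hemidesmosome-like junctions of the epidermis, and idpp-1. Its means were 3.86, 2.71 and 3.70 in the intestine, against -0.74, -0.31 and -0.67 in the hypodermis, in the BAF-1(G12T) columns, and all 9 bins were called. In both of these runs every BAF-1(G12T) intestine mean lay farther from 0 than any hypodermis mean.

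The third, chrII:8344001-8362000, contained eff-1, whose product fuses epidermal cells, C26D10.6 and the collagen gene col-77. Here the means in the BAF-1(G12T) columns were 0.61, 1.43 and 1.86 in the intestine, against -3.01, -2.33 and -2.65 in the hypodermis. Limma called 6 of its 7 tested bins. In contrast to the runs on chromosome III, the distance from the column median was larger in the hypodermis than in the intestine. Runs of 8 bins, chosen for naming after their values were seen, lay at nhr-85 on chromosome I, ptp-3 and col-81 on chromosome II, C05C8.7 on chromosome V, and grd-14 with grd-4 and nhr-91 with glb-28 on X. All 8 bins were called in each of these 5 runs, with median differences of 4.09 to 5.02. Other genes listed for these runs include npr-14, hpo-2 and clec-107 on chromosome I, ram-2 on II and ser-2 on X.

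In windows of 100 kb, 526 of 1004 windows with a kept bin held a member, and 38 windows with 10 or more members held 513 of them. The richest was chrII:14600001-14700000 with 21 members among 40 kept bins, 19 of them called higher in the BAF-1(G12T) columns. It contains tag-297, mltn-9 and unc-52, the gene for perlecan of the basement membrane between muscle and epidermis. The others were chrII:10000001-10100000 (20 members, with die-1), chrV:20600001-20700000 (20, with mlt-11 and grd-2), chrIII:700001-800000 (18, with pat-12) and chrX:15300001-15400000 (17, with nhr-91). Called members numbered 17 of 18, 16 of 20, 17 of 18 and 11 of 15 tested in these windows. They held 1 hypodermis-higher bin in all, in the window on chromosome III. The mean BAF-1(G12T) ratio over members was 2.96 in the intestine, against -0.50 in the hypodermis, in the window on chromosome V, and 0.98 in the intestine, against -2.20 in the hypodermis, in that on X. The level at which both tissues stood thus differed between windows with a similar difference. The genes named for the windows are a choice, and no gene theme was tested. The windows on chromosome II also list C38C6.3, hhat-1, lec-2, bath-38, flp-4 and stg-1. That on V also lists ttr-12 and mnr-1, that on III idpp-1, nlp-52 and ptl-1, and that on X glb-28.

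Members were poorer in exons than other kept bins. Exons of protein-coding genes covered 23.5% of the bases of members on average, against 42.4% in hypodermis-higher bins and 34.1% in all kept bins. Introns covered 33.05% of member bases, against 34.5% in hypodermis-higher bins and 32.95% in all kept bins. Bases outside genes made up 40.8% of members, against 19.1% in hypodermis-higher bins and 28.97% in all kept bins. A protein-coding gene overlapped 1413 members (74.7%), against 92.5% of hypodermis-higher bins and 84.95% of all kept bins. No annotated gene overlapped 284 members (15.0%), against 3.42% of hypodermis-higher bins and 7.75% of all kept bins. The median GC content was 35.4% in members, 38.2% in hypodermis-higher bins and 36.2% in all kept bins. The 236 tested members without a gene and the 1245 with a protein-coding gene had BAF-1(G12T) differences with medians of 3.00 and 2.95, and 55.5% and 57.3% were called. A value shared by over 500 bins of a BAF-1 column occurred in 46.5% of members, 27.1% of hypodermis-higher bins and 45.7% of all kept bins. The part of GC content, gene content, site number and read number in the tissue difference was not tested. In members with fewer than 3 GATC sites the median BAF-1(G12T) difference was 2.84, against 3.18 in those with more than 8.

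At the gene level, where the authors counted reads over each gene with 500 bp at each end, 1705 genes had at least 50% of their length in members. Among them were 527 protein-coding genes, 543 piRNA genes and 553 ncRNA genes. The tested 1259 of them had 700 called higher in the intestine in the BAF-1(G12T) columns (55.6%), against 5.26% of all 27643 tested genes. These windows share reads with the bins, so the gene values repeat the same measurement. The number of calls was 172 without hypodermis replicate 1 (0.814% of all tested genes), 214 without hypodermis replicate 2 (1.06%), 386 without intestine replicate 3 (2.37%) and 449 without intestine replicate 1 (2.84%). Of the protein-coding genes 482 were tested, 463 had a difference above 0, 272 were called higher and none lower, against 2.97% of all tested genes called lower, with a single gene lower at an unadjusted p under 0.05. Their median length was 1863 bp, against 1993 bp for genes in hypodermis-higher bins and 2068 bp for all kept protein-coding genes.

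The 12 protein-coding genes chosen by the largest gap of their bins were nlp-31, nlp-30, mlt-7, tag-297, F08F3.4, C05C8.7, gpa-12, unc-52, nspe-1, nspe-8, T19C4.24 and nlp-33. All 12 were called higher in the intestine in the BAF-1(G12T) columns, against 55.6% of all tested genes in members. Because they were chosen by gap, the nearer comparison is the 90.6% called among tested member bins with a gap over 3. The genes are not 12 separate loci. nlp-31 with nlp-30, nspe-1 with nspe-8, and T19C4.24 with nlp-33 each took their gap from a shared bin. nlp-31 averaged 2.59 ± 0.33 in the intestine and -3.83 ± 1.14 in the hypodermis (SD, n = 3 each). nlp-33, a further antimicrobial peptide gene on the same chromosome, averaged 3.05 ± 0.97 in the intestine and -3.42 ± 1.11 in the hypodermis. unc-52 had 4.51, 2.17 and 3.00 in the intestine, against -1.49, -0.87 and -0.95 in the hypodermis. gpa-12, a G protein alpha subunit known from the epidermal response to fungal infection, had 0.81, -0.56 and 1.43 in the intestine, against -3.62, -2.41 and -2.38 in the hypodermis (difference 3.36 ± 0.75, SE, adjusted p = 0.022 by limma). Its call was lost under 6 of the 8 alternatives tried for genes, whereas those of unc-52 and nlp-30 were lost under 1 and 2.

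nlp-31 and nlp-30 belong to a cluster of antimicrobial peptide genes on the left arm of chromosome V, and its other genes were looked up after these values were seen. nlp-27, nlp-28, nlp-29 and nlp-34 also had at least 50% of their length in members. nlp-27 averaged 4.01 ± 0.71 in the intestine and -1.54 ± 0.54 in the hypodermis in the BAF-1(G12T) columns, and nlp-29 averaged 2.44 ± 0.94 in the intestine and -2.55 ± 0.28 in the hypodermis (SD, n = 3 each). Both were called higher (adjusted p = 0.0085 by limma), while nlp-28 and nlp-34 held a most frequent value and were not tested. nlp-32 on chromosome III lay in no member. It had 3.34, 4.95 and 4.30 in the intestine, against 2.36, 1.73 and 1.67 in the hypodermis, with a difference of 2.28 ± 0.70 (SE, adjusted p = 0.066 by limma). In this gene, unlike those of the cluster, both tissues were above the median of genes.

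**Figure D5:**
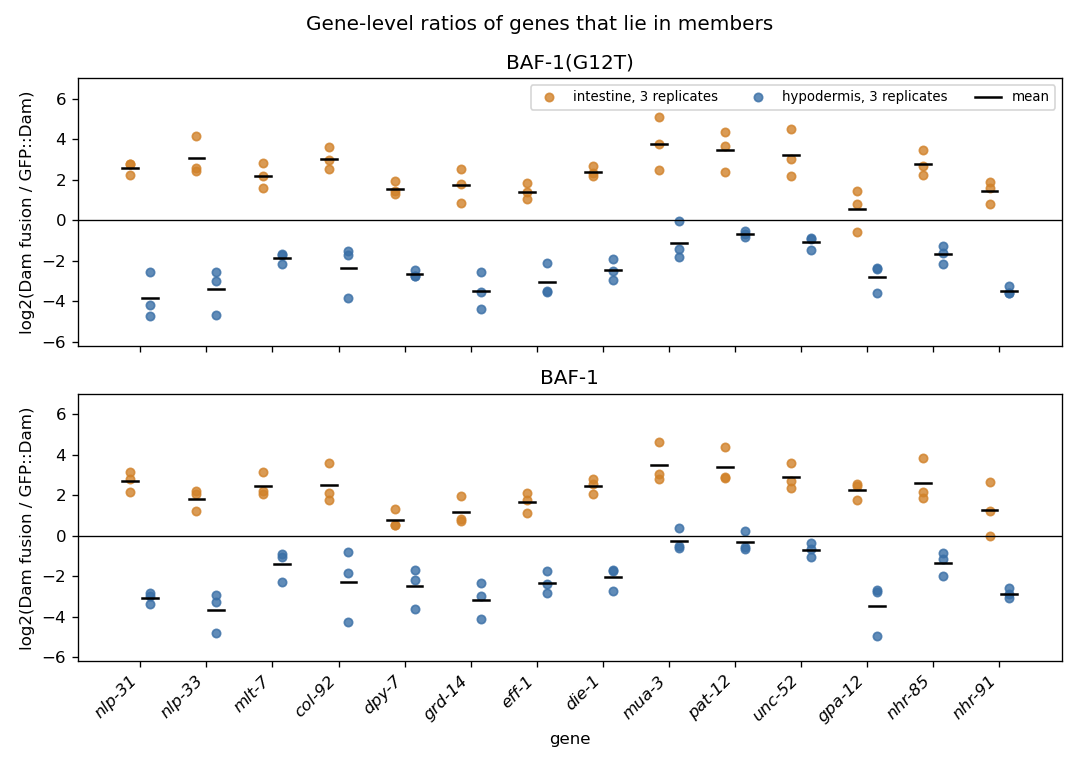
Gene-level ratios (log2 of Dam fusion over GFP::Dam, median of the kept genes at 0) of 14 genes in members, BAF-1(G12T) in the upper panel and BAF-1 in the lower panel. Points are the 3 replicates of each tissue and lines their means. The replicates of both tissues do not overlap for any of these genes.

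Genes encoding cuticle collagens, the structural proteins of the cuticle made by the epidermis, were among the listed families. Of the collagen genes in kept bins 13 (8.84%) lay in members. Of these, 12 were called higher in the BAF-1(G12T) columns, against 55.6% of all tested genes in members. Of the protein-coding genes in kept bins 3.64% lay in members, and of all 27723 genes 6.15%. A further 11 collagen genes (7.48%) lay in hypodermis-higher bins, against 4.76% of protein-coding genes. In the BAF-1(G12T) columns 31 of 163 collagen genes were called higher in the intestine (19.02%) and 3 lower (1.84%), against 3.53% and 3.52% of protein-coding genes and 5.26% and 2.97% of all genes. The median difference of the list was 0.48, against -0.11 over protein-coding genes and 0.09 over all genes. col-94 averaged 1.83 ± 0.48 in the intestine and -2.26 ± 0.48 in the hypodermis, col-92 averaged 3.04 ± 0.55 in the intestine and -2.36 ± 1.29 in the hypodermis (SD, n = 3 each). col-144 and col-79 had differences of 5.62 ± 0.73 and 4.80 ± 0.66 (SE). All 4 were called (adjusted p = 0.0085 to 0.0091 by limma).

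Hedgehog-related genes encode secreted proteins of the wrt, grd, grl, hog and qua families, many of which are made by epidermal cells. Members contained 6 of 54 of them (11.1%), against 3.64% of protein-coding genes, and hypodermis-higher bins contained none, against 4.76% of protein-coding genes. In the BAF-1(G12T) columns 11 of 55 were called higher in the intestine (20.0%) and 1 lower (1.82%), against 3.53% and 3.52% of protein-coding genes, with a median difference of 0.98. grd-14 had 2.52, 0.86 and 1.78 in the intestine, against -4.40, -3.54 and -2.55 in the hypodermis. grd-4, its neighbour, had a difference of 4.81 ± 0.86, grd-2 one of 3.09 ± 0.68 and grl-7 one of 3.58 ± 0.68 (SE), and all were called. Of the 8 alternatives, the call of grd-2 was lost under 5, that of grl-7 under 2 and that of grd-4 under 1.

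Nuclear hormone receptors are ligand-regulated transcription factors. Of 196 of their genes 11 (5.61%) lay in members, against 3.64% of protein-coding genes and 6.15% of all genes. nhr-85, which acts in developmental timing, had 2.67, 2.21 and 3.46 in the intestine, against -2.16, -1.28 and -1.62 in the hypodermis. nhr-147 and nhr-91 had differences of 4.91 ± 0.81 and 4.91 ± 0.66 (SE). Of the 11 genes 10 were called higher in the intestine, against 55.6% of all tested genes in members. nhr-23 and nhr-25, both needed for moulting and named after their values were seen, averaged -0.26 ± 0.91 and 0.24 ± 0.95 in the intestine and -3.61 ± 0.75 and -4.07 ± 0.62 in the hypodermis (SD, n = 3 each). The call of nhr-23 was lost under 5 alternatives and those of nhr-25 and nhr-147 under 1 each. Over the whole family 15 of 236 genes were called higher (6.36%) and 13 lower (5.51%), against 3.53% and 3.52% of protein-coding genes. Of all genes 5.26% were called higher and 2.97% lower.

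The remaining families are set against the 3.64% of protein-coding genes that lay in members. Members held 26 of 770 chemoreceptor genes of the sr families (3.38%), 4 of 190 C-type lectin genes (2.11%), 3 of 228 F-box genes (1.32%), 2 of 59 cytochrome P450 genes (3.39%), 2 of 38 ceh homeobox genes (5.26%), and 1 each of 49 UDP-glucuronosyltransferase, 46 MATH or BATH, 22 major sperm protein and 74 ribosomal protein genes. No insulin-like, Skp1-related, BTB-domain or histone gene had 50% of its length in members. In the BAF-1(G12T) columns 31 of 257 F-box genes were called lower in the intestine (12.06%) and 3 higher (1.17%), against 3.52% and 3.53% of protein-coding genes. UDP-glucuronosyltransferase genes, whose products conjugate xenobiotics, had 12 of 61 called lower (19.7%) and 0 higher, with 2 higher at an unadjusted p under 0.05. MATH or BATH genes had 10 of 62 called lower (16.1%) and 1 higher (1.61%). Major sperm protein genes had 3 of 20 called lower (15.0%) and 1 higher (5.0%), and C-type lectin genes 14 of 210 lower (6.67%) and 3 higher (1.43%). No ribosomal protein gene was called in either direction, and at an unadjusted p under 0.05 there were 0 higher and 5 lower of 73.

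Of the genes without protein product, 543 of 5532 piRNA genes (9.82%) and 553 of 5162 ncRNA genes (10.7%) lay in members. This was so for 3.64% of 14472 protein-coding genes and 6.15% of all 27723 genes. piRNA genes are so short that their windows with flanks overlap and share reads. Several piRNA genes can also lie in the same bin, so their count is not a count of separate bins. Counted by bins, the excess was smaller. A piRNA gene occurred in 6.03% of members, against 2.28% of hypodermis-higher bins and 4.71% of all kept bins. Gene length differs between the gene classes, and its part in the shares by genes was not tested. Of 4132 tested piRNA genes 257 were called higher (6.22%) and 96 lower (2.32%), against 5.26% and 2.97% of all genes. Their median difference was 0.37. Of 4371 ncRNA genes 544 were called higher (12.4%) and 51 lower (1.17%), with a median of 0.71. Of 16581 protein-coding genes 585 were called higher (3.53%) and 583 lower (3.52%), with a median of -0.11. Members held 20 of 430 tRNA genes (4.65%), 10 of 269 snoRNA genes (3.72%) and 10 of 186 miRNA genes (5.38%). They held 7 of 111 lincRNA genes (6.31%) and 31 of 1396 pseudogenes (2.22%), against 6.15% of all genes.

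Genes typical of each tissue were compared as lists. Of 20 hypodermis genes, dpy-7 lay in members, 19 had a BAF-1(G12T) difference above 0 and 3 (dpy-7, dpy-8 and bli-1) were called higher in the intestine and 0 lower, with 0 lower at an unadjusted p under 0.05. The 3 higher calls are 15.0% of the list, against 3.53% of protein-coding genes, and those of bli-1 and dpy-8 were lost under 2 and 1 of the 8 alternatives. The median difference of the list was 1.68. dpy-7, a cuticle collagen, had 1.43, 1.92 and 1.30 in the intestine, against -2.77, -2.74 and -2.48 in the hypodermis, a difference of 4.21 ± 0.64 (SE, adjusted p = 0.0085 by limma). The hypodermis strains also carry the dpy-7 promoter in front of FLP, and the part of this extra copy was not tested. Of 20 intestine genes none lay in members, 2 had a difference above 0, and 3 were called lower in the intestine (pho-1, act-5 and asp-1) and 0 higher, with 0 higher at an unadjusted p under 0.05. The 3 lower calls are 15.0% of the list, against 3.52% of protein-coding genes, and they were lost under 5 alternatives for pho-1 and under 3 each for act-5 and asp-1. Their median difference was -1.31.

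The looked-up genes of the nuclear envelope were outside the members. In the BAF-1(G12T) columns lmn-1 (lamin) had a difference of -0.41 ± 0.89, emr-1 (emerin) of -1.32 ± 0.89, lem-2 of -0.74 ± 0.78 and baf-1 of 0.40 ± 1.54 (SE), none of which passed (adjusted p from 0.38 to 0.90 by limma). baf-1 itself had 2.81, -1.65 and -2.21 in the intestine, against -3.43, 2.67 and -1.50 in the hypodermis, the widest spread among these genes. mua-6, an epidermal intermediate filament gene, had a difference of 1.93 ± 0.69 (adjusted p = 0.10 by limma), nhx-2 one of -0.58 ± 0.95 and dod-3 one of -0.89 ± 0.67, and neither nhx-2 nor dod-3 passed.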

How the data were processed

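Log2 ratios were analysed for 12 columns, 3 replicates each of BAF-1(G12T) and BAF-1 in intestine and hypodermis, from 24 libraries. From reads with the adapter sequence, the authors retained those aligned at GATC sites of the ce11 (WBcel235) genome, counted them with their DamID pipelines in 2 kb bins and over genes with 500 bp flanks, added a pseudocount, took relative reads, divided fusion by GFP::Dam and deposited the log2 ratio minus the column mean. For the aligner nothing is given in the sources used here. The deposited average and the adjusted p-value (from DESeq2, as run by the authors) were not used. A bin at the most frequent value of a column, taken here as the value of bins without reads, was left out. Before centring, this value was -0.20, 3.00 and -0.03 in the intestine BAF-1 columns for replicates 1, 2 and 3. In the hypodermis BAF-1 columns it was 0.08, -0.61 and -1.76. The part of bins with few reads in the selection of members was not tested. Reads per bin are not in the ratio tables, so no counting error is given. The study calls its replicates biological.

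The members and gene lists were chosen with earlier results of these data known. Named were the 8 members with the largest gap (at most 1 per 100 kb), the 5 windows of 100 kb with most members, the longest runs, 3 bins on each side of the threshold, 5 members by p in each direction, 12 protein-coding genes by gap, and up to 4 genes per list, of which the text gives some. The genes of long runs and windows, the other nlp genes, nhr-23 and nhr-25 were chosen after their values were seen. Columns were centred on their median over kept features. limma 3.58.1 in R 4.3.3 with robust empirical Bayes moderation compared intestine with hypodermis over all kept features, two-sided, with Benjamini-Hochberg adjustment at 0.05, after a test on simulated data. Genes and exons are from Ensembl release 115, arms and centres from the borders in the study's methods. Of 46287 genes matched to this annotation, 36409 had a deposited start 500 bp before the annotated one. All were placed in members by the annotated coordinates, so the deposited window of the others can differ from these. Replicate numbers were not used to pair the tissues in the main fit. The deviations of same-numbered BAF-1(G12T) columns of both tissues correlated at -0.17, 0.07 and -0.02. These values cannot show whether same-numbered samples were processed together. Within each tissue, the paper reports higher correlations between the genotypes than among replicates, for GFP::Dam reads and for the ratios. Same-numbered columns of both proteins are therefore not fully separate measurements.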

Additional observations from a re-analysis of the deposited data

Results flagged for a closer look

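Of the tested members, 1 had the opposite order of tissues in the BAF-1(G12T) columns without overlap of the replicates, at chrIV:7106001-7108000. Every BAF-1(G12T) intestine value there (-3.54, -0.57 and -0.45) was below every hypodermis value (0.47, 1.12 and 1.31), while every BAF-1 intestine value (1.34, 1.32 and 1.03) was above every hypodermis value (-0.84, -0.73 and -0.23). The difference between the proteins was not tested.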

How the results depend on the processing

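The median BAF-1(G12T) difference over members stayed between 2.70 and 3.21 over 10 alternatives. The count of 989 members with a BAF-1(G12T) gap over 1 (6.64% of all kept bins) ranged from 780 to 1211. It was 780 of 1177 (7.57% of all bins) with values shared by at most 500 bins. Without intestine replicate 2, where fewer values enter the rule, it was 1211 of 1656 (10.8% of all bins). The count of 946 called members varied more. With a replicate block it was 595 (2.53% of all kept bins), and without 1 library it ranged from 179 to 990. The gene count of 700 was 402 with the replicate block and 172 to 699 without 1 library. Members bound in the intestine numbered 465 to 766 and those bound in the hypodermis 29 to 81 without 1 library. Leaving out a library also leaves fewer residual degrees of freedom. The number of members was 1143 with the deposited centring, 592 with a minimum gap of 2, and 2309 to 3258 without 1 BAF-1 library, where fewer values enter the rule (3258 without intestine replicate 1, 3023 and 2906 without hypodermis replicates 3 and 1). With the gap of 2 the share of autosomal members in arms was 49.3%. Keeping bins whose value was shared by at most 500 bins, an alternative chosen after seeing the data, left 1177 members, of which 844 were called, against 7.93% of all bins kept so. Among 447 alternative values of the 8 members and the genes followed through the alternatives, none changed direction, 68 lost their call and 2 gained one, 23 of the losses without hypodermis replicate 1. The tables hold no reads per bin, so bins with few reads were not weighted down.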
